A study of Mus musculus with 51 samples.

Results

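Serotonergic (5HT) neurons of wt mice were compared between 8 and 4 months of age, using the 8 libraries that the labels give as wt, 5HT and either age, of 51 libraries in the series. The animals belonged to the SertCreEed strain, in which the serotonin transporter promoter drives Cre recombinase against Eed, a core subunit of Polycomb repressive complex 2 (PRC2). The labels do not say whether wt animals carried Cre. At 8 months there were 3 females (S381, S382, S383) and 1 male (S385). At 4 months there were 2 females (S373, S374) and 2 males (S367, S369). Each library was made by Smart-seq2, a full-length method for little RNA, from cells of the adult midbrain obtained by fluorescence-activated sorting, and each came from an animal with its own number. All 8 libraries belong to sequencing set1. For comparison, 17 wt libraries of midbrain dopaminergic (mDA) neurons from the DatCreEed strain, with Cre under the dopamine transporter promoter, and 8 libraries of PRC2 mutant 5HT neurons were used at the same ages. The series was made to examine gene expression in both neuron types with and without functional PRC2, and the wt comparison over age gives the background against which mutant changes over the same months can be read.

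Serotonergic neurons of the raphe nuclei make serotonin from tryptophan with tryptophan hydroxylase 2 (Tph2) and aromatic amino acid decarboxylase (Ddc), load it into vesicles with Slc18a2 and take it back up with the transporter Slc6a4. Transcription factors including Fev (Pet1), Lmx1b, Gata2 and Gata3 install this identity in development, and Fev and Lmx1b are also required to keep it in the adult. The cells project through most of the brain, fire in a slow regular pattern and live as long as the animal.

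Totals ran from 3211468 to 6344738 counts per library, so that a floor of 3 counts stood for 0.462 to 1.06 CPM (read counts scaled to library size by TMM), for counting error only. Tph2 stood between 2055 and 3365 CPM and Slc6a4 between 2121 and 2815 CPM in all 8 libraries, as the label 5HT would have it. The dopaminergic factor Pitx3 stood at 0 to 1.07 CPM and the noradrenergic enzyme Dbh at 0 to 4.78 CPM. Other markers of these and further neuron types were higher. The dopaminergic genes Th and Slc6a3 stood at 3.03 to 35.8 CPM and 1.04 to 32.3 CPM. The GABA marker Gad2 stood at 70.0 to 110.5 CPM and the glutamate marker Slc17a6 at 7.42 to 72.8 CPM. The cells from which this RNA came were not tested. Myelin transcripts of oligodendrocytes were present in every library, with Mbp at 155 to 637 CPM. Library S369 stood apart: it had the lowest total, 35.8% of its counts in its top 50 genes against 25.1% to 28.1% in the other libraries, and 7 counts of the mCherry reporter against 68 to 163. Many, but not all, of the results in which it was the extreme library are given with and without it.

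Across the transcriptome, edgeR called no gene at 8 against 4 months, and DESeq2 called 38. Of 13568 genes tested with edgeR's quasi-likelihood test with sex as a term, 0 (0%) passed a Benjamini-Hochberg adjusted p of 0.05, and the smallest adjusted p was 0.522, for Podxl2. An unadjusted p under 0.05 was reached by 691 genes (5.09% of those tested), of which 363 were higher and 328 lower at 8 months. The 4 libraries at 8 months all lay above the 4 at 4 months in 2.76% of genes and all below in 2.51%. The median log2 fold change was 0.01, the median of its size 0.30, and 51.2% of genes had a positive value. Of the 38 genes called by DESeq2 on the same counts 27 were higher, but 7 of these had too few counts for edgeR's filter, and 6 of the 7 had 0 counts in every 4-month library, so that their fitted folds are no bound. Among the 13568 genes that passed the filter DESeq2 called 20 as higher and 11 as lower. In DESeq2 an unadjusted p under 0.05 was reached by 5.42% of all genes given a p. In other fits limma-voom called 1, Podxl2, and edgeR without a filter on low counts called 25. With the filter, edgeR called 20 when the mDA libraries were fitted too, in all 25 wt libraries. There 10.7% of genes had an unadjusted p under 0.05. The count of 0 therefore depends on the tool, the filter and the libraries fitted. In what follows, called means called by edgeR with the filter in these 8 libraries, unless another fit is named. Calls by DESeq2 are named as such. In fits that left out 1 library each, edgeR called 0 genes in all 8. Of these, the fit without S385, the only male at 8 months, takes its age effect from females alone.

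How small a difference these 8 libraries could bound depended on the level of the gene. The 95% interval of the log2 fold change lay wholly between -1 and 1, that is, within a doubling or halving, for 5295 genes (39.0%). The share was 11.4% of 4477 genes at 3 to 5 log2 CPM, 72.0% of 4896 genes at 5 to 7, 92.0% of 1243 genes at 7 to 9 and 94.2% of 121 genes at 9 or more. Of 2786 genes at 1 to 3 log2 CPM no interval was that narrow, so a difference of 2-fold or more could be excluded for none of them. The interval lay wholly beyond 1 in size for 14 genes, 11 higher and 3 lower, none of which passed the adjusted threshold. Among genes at 5 log2 CPM or more the narrowest intervals belonged to Slc6a4 itself, the copine Cpne7 (log2 fold change 0.11, SE 0.14), the G protein subunit gene Gnas (-0.24, SE 0.14), the pseudogene Pisd-ps3 (-0.05, SE 0.14) and Ndrg4 (0.13, SE 0.14).

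**Figure D1:**
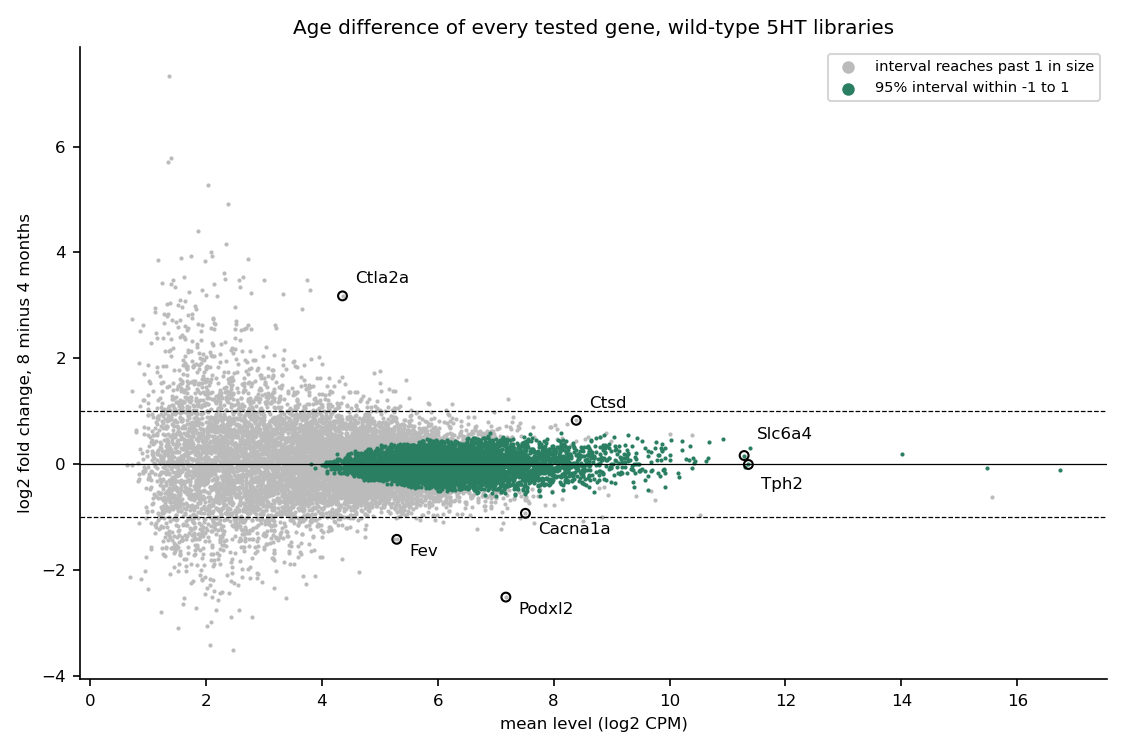
Log2 fold change at 8 against 4 months of each of the 13568 tested genes (vertical axis) against its mean log2 CPM (horizontal axis), in 4 and 4 libraries, with green points for the 5295 genes whose 95% interval lies between -1 and 1. The points narrow with level, and the circled genes Podxl2 at -2.51 and Fev at -1.42 lie below the -1 line, with Ctla2a at 3.18 above the line at 1.

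Pairs of animals of different age had a median correlation between those of pairs within each age, a difference that was not tested. Pearson's r of log2 CPM, across genes within each pair of libraries, had a median of 0.871 over the 16 pairs of different age, 0.823 over the 6 pairs within 4 months and 0.902 over the 6 pairs within 8 months. The biological coefficient of variation was 0.553 at 4 months, 0.488 there without S369, and 0.374 at 8 months. The first component, with 29.0% of the variance, set S369 at 122 against -50.8 to -5.28 for the other 7 libraries. The second, with 19.2%, ran from S367 at -81.7 to S381 at 72.6, which are of different age and sex. Genes that varied most after age and sex were again those of S369: Zgpat stood at 3.18 CPM there and at 106 to 225 CPM in the other libraries, and Pcp4l1 at 0 CPM there and at 31.0 to 59.8 CPM elsewhere.

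**Figure D2:**
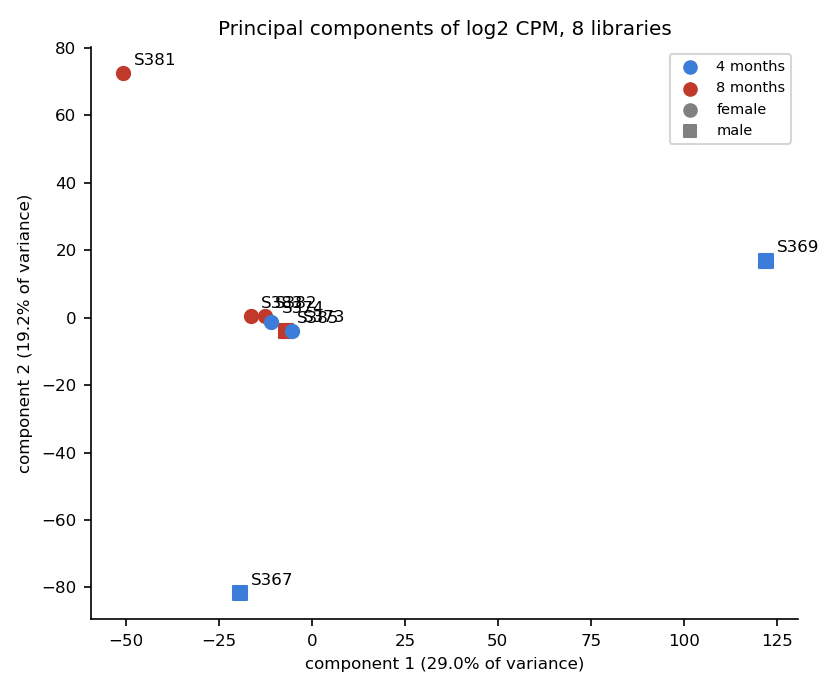
Principal components 1 and 2 of log2 CPM over the tested genes for the 8 libraries, coloured by age with squares for males, where each point is 1 animal. S369 lies alone at 122 on component 1, and the ages are not separated by either component.

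The machinery that makes and handles serotonin was mostly bounded within a doubling or halving. Of 14 genes of serotonin synthesis and handling, all were tested and none was called. In the list, 0 had an unadjusted p under 0.05 as higher and 1 as lower, and 13 had an interval within -1 to 1. Over all tested genes the share with such an interval was 72.0% at 5 to 7 log2 CPM, 92.0% at 7 to 9 and 94.2% at 9 or more. The list's median log2 fold change was 0.10 (-0.001 without S381, 0.02 without S369). Tph2, the rate-limiting enzyme, stood at 2391, 2055, 2792 and 2894 CPM at 4 months (in the order S367, S369, S373, S374) and at 2693, 2761, 3365 and 2078 CPM at 8 months (in the order S381, S382, S383, S385). The lowest library of each age was a male, and the ages overlapped. Its log2 fold change was -0.003 (SE 0.14, 95% interval -0.31 to 0.30, adjusted p = 0.999).

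Slc6a4, the plasma membrane transporter, stood at 2283, 2121, 2492 and 2430 CPM at 4 months and at 2643, 2622, 2815 and 2584 CPM at 8 months. Every 8-month library was above every 4-month one, yet the log2 fold change was only 0.17 (SE 0.13, adjusted p = 0.932). Slc18a2, the vesicular monoamine transporter, stood at 2541, 1627, 2639 and 2685 CPM at 4 months and at 3090, 2778, 2944 and 3196 CPM at 8 months. Here too the ages did not overlap, with S369 as the low library, and the log2 fold change of 0.31 (SE 0.17, adjusted p = 0.926) was 0.20 without S369. Ddc, which converts 5-hydroxytryptophan to serotonin, averaged 968 ± 118 CPM (SD, n = 4) at 4 months and 946 ± 156 CPM (SD, n = 4) at 8 months. The degrading enzymes Maoa (0.12, SE 0.26) and Maob (0.34, SE 0.20) and the low-affinity transporter Slc22a3 (0.15, SE 0.22) had log2 fold changes within 2 SE of 0. Gch1, the first enzyme of the cofactor tetrahydrobiopterin, had the smallest unadjusted p of the list: 96.1, 148, 160 and 183 CPM at 4 months against 104, 117, 136 and 96.1 CPM at 8 months, a log2 fold change of -0.46 (SE 0.20, adjusted p = 0.926), with overlapping ages.

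**Figure D3:**
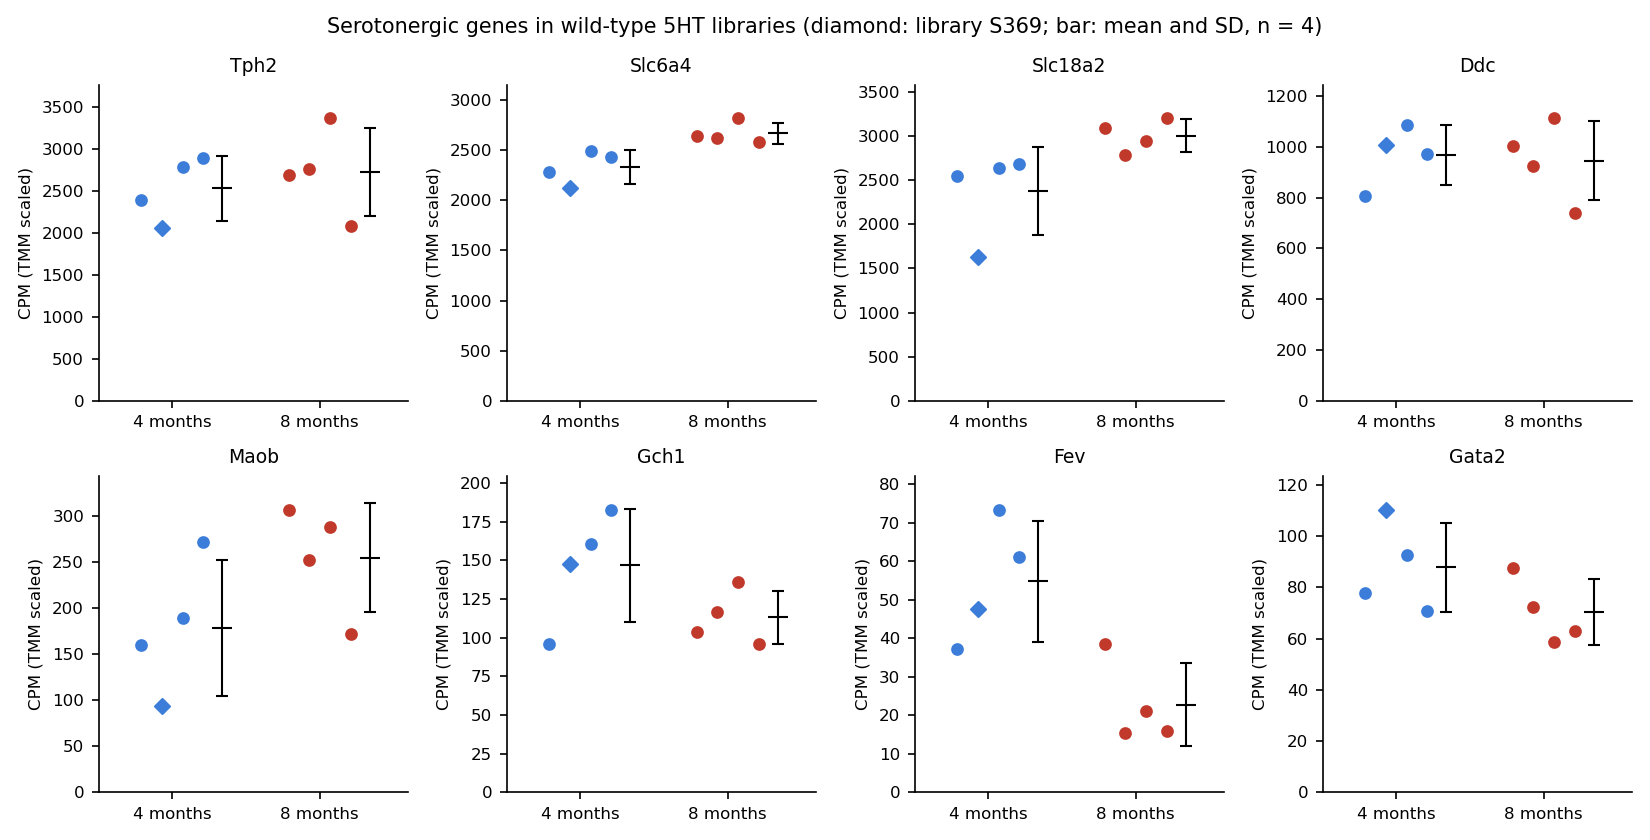
TMM-scaled CPM of 8 serotonergic genes in each wt 5HT library at 4 months (blue, n = 4) and 8 months (red, n = 4), with mean and SD beside the points and library S369 as a diamond. Tph2 and Ddc overlap between ages, Slc6a4 and Slc18a2 lie slightly above at 8 months, and Fev lies lower at 8 months in every library but S381.

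Among the serotonergic transcription factors, Fev stood lowest against its own error. Fev (GRCm38 chr1:74881501-74885473), the ETS-domain activator of the serotonergic gene battery, stood at 37.3, 47.7, 73.4 and 61.1 CPM at 4 months and at 38.5, 15.5, 21.2 and 16.04 CPM at 8 months. S381 was within the 4-month range and the other 8-month libraries were below it. The log2 fold change was -1.42 (SE 0.33, 95% interval -2.12 to -0.71), with an unadjusted p of 0.000774 and an adjusted p of 0.615 in edgeR, so it was not called, whereas DESeq2 called it at an adjusted p of 0.0319. It was -1.36 without S369 and -1.43 in females alone.

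The other factors of the list had smaller differences. Of 11 tested factors 8 had a negative value and 2 an unadjusted p under 0.05, both lower. The list median was -0.26 (-0.12 without S367, -0.15 without S381). The summed level of the 15 listed factors, Fev among them, was 524 to 609 CPM at 4 months and 435 to 489 CPM at 8 months, without overlap. Gata2 had a log2 fold change of -0.31 (SE 0.24) and Gata3 of -0.01 (SE 0.19). The glucocorticoid receptor gene Nr3c1 stood at -0.26 (SE 0.18). En1, a homeodomain factor kept by adult midbrain and rostral hindbrain neurons, was the other one with an unadjusted p under 0.05, at 22.4, 30.4, 35.8 and 48.1 CPM at 4 months and 21.01, 24.7, 19.4 and 18.8 CPM at 8 months (log2 fold change -0.78, SE 0.32, adjusted p = 0.926). Lmx1b was too low to follow, at 0 to 3.18 CPM over the 8 libraries.

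Serotonin receptors and subtype genes held no called gene either. Of 12 receptor genes, 8 were tested, with a median log2 fold change of 0.04 (-0.03 without S381, 0.54 without S373). Htr1a, the inhibitory autoreceptor of cell bodies and dendrites, stood at 133, 49.4, 123 and 132 CPM at 4 months and at 146.9, 148, 124 and 143 CPM at 8 months. S369 was the low library, and the log2 fold change of 0.32 (SE 0.26) was 0.12 without it. Htr1b, the autoreceptor of axon terminals, was at 0.353 to 14.9 CPM with no measurable difference (0.00, SE 0.85). Htr5b, a receptor found on raphe neurons in rodents, was the only receptor with an unadjusted p under 0.05, at 13.8 to 29.8 CPM and 23.5 to 47.1 CPM with overlapping ages (log2 fold change 0.83, SE 0.36, adjusted p = 0.926). Slc17a8, the vesicular glutamate transporter of a subset of raphe neurons, stood at 55.9, 122, 82.2 and 121 CPM at 4 months and at 48.9, 48.4, 46.9 and 60.9 CPM at 8 months. The ages overlapped by S367 and S385, and the log2 fold change was -0.88 (SE 0.27, adjusted p = 0.871). In RNA from sorted cells, fewer cells of a subtype and less RNA per cell cannot be told apart.

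The general neuronal programme was also without a call. Of 34 presynaptic release genes, 3 had an unadjusted p under 0.05 as higher and 2 as lower, 27 had an interval within -1 to 1, and the list's median log2 fold change was 0.10. Without S385 no member had such a p and the median was 0.01, and without S369 it was 0.02. The vesicle protein gene Syp stood at 600, 304, 487 and 579 CPM at 4 months and at 845, 679, 807 and 671 CPM at 8 months, without overlap (log2 fold change 0.55, SE 0.20, adjusted p = 0.926; 0.43 without S369). The large active zone scaffold gene Pclo went the other way, with 1561 CPM in S369 and 613 to 696 CPM in the other 4-month libraries against 397 to 574 CPM at 8 months. Its log2 fold change of -0.59 (SE 0.25) was -0.35 without S369.

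Dense-core granule genes, which package and process neuropeptides, had a median log2 fold change of 0.10 over 13 tested members (-0.003 without S381, 0.25 without S385). Scg2, a granin, stood at 777 to 1203 CPM at 4 months and 1185 to 1517 CPM at 8 months, with overlapping ages (log2 fold change 0.44, SE 0.16, adjusted p = 0.926). Pcsk1n, an inhibitor of the proprotein convertase Pcsk1, had a log2 fold change of -1.07 (SE 0.30, adjusted p = 0.765), but S385 alone was far below, at 79.3 CPM against 317 to 501 CPM in the other 7 libraries. Of 53 tested ion channel genes 0 were higher and 3 lower at an unadjusted p under 0.05, with a median of -0.06. The lowest p belonged to Cacna1a, the pore of P/Q-type calcium channels, at 225, 431, 180 and 172 CPM at 4 months and 96.3, 107.1, 98.3 and 149 CPM at 8 months. The ages did not overlap, S369 was the highest, and the log2 fold change of -0.93 (SE 0.22, adjusted p = 0.615) was -0.75 without it. Neurofilament and tubulin genes had a median of -0.005 over 22 genes, with 0 at an unadjusted p under 0.05, though 5 were lower at that p without S369. GABA and glutamate receptor genes had a median of 0.02 over 41 genes, with 1 higher, Gabrb1, a GABA-A receptor subunit (log2 fold change 0.57, SE 0.24).

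Since edgeR called no gene, the 10 with the smallest p on each side at 3 log2 CPM or more are described as not called. DESeq2 called 19 of these 20, all but Polr2m, limma-voom 1 and edgeR without the filter 9. On the higher side, all 10 had ages that did not overlap, against 2.76% of all tested genes. The 20 genes were chosen by p in these same libraries. Neither the lack of overlap nor the calls of other tools is therefore separate support for them. Ctsd, the lysosomal protease cathepsin D (GRCm38 chr7:142375910-142387827), stood at 265.1, 205, 223 and 264 CPM at 4 months and at 426.3, 448, 440 and 409 CPM at 8 months. The means were 239 ± 30.1 and 431 ± 17.2 CPM (SD, n = 4 each), and the log2 fold change was 0.83 (SE 0.16, 95% interval 0.48 to 1.18), with an unadjusted p of 0.000167 and an adjusted p of 0.588 in edgeR and of 0.00511 in DESeq2. Slc31a1, the high-affinity copper importer, stood at 12.3 to 30.7 CPM and 60.1 to 68.0 CPM (log2 fold change 1.59, SE 0.31). Ctla2a, a cysteine protease inhibitor gene of mouse, stood at 0 to 6.95 CPM at 4 months and at 23.1 to 70.9 CPM at 8 months, with S381 the highest (log2 fold change 3.18, SE 0.64). Man2b2, a mannosidase gene, stood at 12.7 to 27.8 CPM and 45.6 to 54.5 CPM (1.42, SE 0.34). Among the others were Hsd17b7 of cholesterol synthesis, the chondroitin polymerising gene Chpf2 (0.79, SE 0.18), the cytochrome oxidase assembly gene Coa5 (1.25, SE 0.28), the fatty acid transporter gene Slc27a1 (1.16, SE 0.27) and the neuronal leucine-rich repeat gene Lrrn2 (1.03, SE 0.24).

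On the lower side, Podxl2, which encodes the sialomucin endoglycan (GRCm38 chr6:88842557-88875046), had the smallest p of all genes. It stood at 208, 222, 244 and 252 CPM at 4 months and at 80.9, 92.5, 42.6 and 11.6 CPM at 8 months. The 4-month libraries lay close together, the 8-month ones were spread over a wide range with the male S385 lowest, and the ages did not overlap. The log2 fold change was -2.51 (SE 0.42, 95% interval -3.41 to -1.60), with an unadjusted p of 3.85e-05 and an adjusted p of 0.522 in edgeR; limma-voom and DESeq2 called it at adjusted p of 0.0168 and 2.38e-07. In females alone the value was -1.79. The ubiquitin ligase gene Rnf187 (-1.23, SE 0.23), the Notch-modifying glycosyltransferase gene Rfng (-1.12, SE 0.23), the ribosomal protein gene Rps2 (-0.79, SE 0.19), Trim59 (-2.26, SE 0.54), Cdk5r1, the p35 activator of Cdk5 (-1.41, SE 0.34), and Ggnbp2 (-1.12, SE 0.27) did not overlap between ages either. Ggnbp2 stood at 525 CPM in S369 and 203 to 218 CPM in the other 4-month libraries, and its value was -0.84 without S369. Polr2m (-0.96, SE 0.23) and Fev completed the 10, with overlapping ages.

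Of the pathways examined, cholesterol synthesis had the largest share of members at a small p on 1 side. Of 21 tested members, 8 had an unadjusted p under 0.05 as higher and 0 as lower, against 5.09% of all genes in both directions together, 5 had non-overlapping ages, against 2.76% of all genes, and 18 had a positive value. The median log2 fold change was 0.34, against 0.01 over all genes. No member was called by edgeR, and 2, among them Hsd17b7, were called by DESeq2. Hsd17b7 (GRCm38 chr1:169949535-169969242), a ketoreductase of the late pathway, stood at 13.5, 20.5, 19.8 and 26.4 CPM and at 54.1, 47.3, 71.7 and 48.5 CPM, without overlap (log2 fold change 1.39, SE 0.30, adjusted p = 0.602). Dhcr7, which makes cholesterol in its last step, stood at 92.3 to 125 CPM and 141 to 211 CPM (0.72, SE 0.19), and Sqle, the squalene epoxidase, at 92.8 to 145 CPM and 174.8 to 259 CPM (0.72, SE 0.21). Srebf2, the transcription factor that drives the pathway, was at 80.8 to 158 CPM and 181 to 237.8 CPM (0.68, SE 0.22).

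Among the remaining members at an unadjusted p under 0.05, the synthase gene Lss (0.81, SE 0.24) and the desaturase gene Sc5d (0.61, SE 0.24) overlapped between ages. Summed over the pathway, the level was 2399 to 2679 CPM at 4 months and 2957 to 3603 CPM at 8 months. The number of members at an unadjusted p under 0.05 as higher was 8 without S369, 8 in females alone and 5 to 10 when 1 library was left out, the lowest without S385, while the share of all genes at that p moved between 3.33% and 9.42% over the same fits. Oligodendrocytes and astrocytes make cholesterol as well. The summed markers of oligodendrocytes stood at 747 to 1803 CPM and 1155 to 1770 CPM and those of astrocytes at 608 to 1168 CPM and 929 to 1379 CPM, and their part in the cholesterol result was not tested.

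Lysosome and autophagy genes had 8 of 35 members at an unadjusted p under 0.05 as higher and 1 as lower, 7 with non-overlapping ages on the higher side (2.76% of all genes), 29 with a positive value and a median log2 fold change of 0.35. None was called by edgeR, and 2, Ctsd and Ctss, were called by DESeq2. Beside Ctsd, these were the saposin precursor gene Psap, at 380.9 to 697 CPM and 754 to 1001 CPM (0.51, SE 0.20), cathepsin B, Ctsb, at 124 to 240 CPM and 256 to 398 CPM (0.66, SE 0.22), progranulin, Grn, at 20.8 to 68.1 CPM and 78.3 to 158 CPM (1.14, SE 0.35), the membrane protein gene Lamp2 (0.81, SE 0.36), Ctss, Glb1 and Tpp1. S369 was the lowest 4-month library for Ctsd, Psap, Ctsb, Grn and Lamp2, and without it 6 members had that p as higher, with a median of 0.33. The number was 4 without S381, 4 without S373 and 3 without S385. Map1lc3a, an autophagosome protein gene, was the member on the lower side, at 168, 89.7, 206 and 206 CPM and at 157, 116, 98.6 and 56.2 CPM (-0.90, SE 0.24, adjusted p = 0.716), with overlapping ages.

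The promoter of Ctsd is shown because it is among those of this class that hold a palindrome bound by the TFEB family of lysosomal regulators. The window covers the RefSeq start (GRCm38.p6, minus strand, chr7:142387778-142388077), 5′ to 3′, with the 8-base palindrome TCACGTGA in capitals at position 152.

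Ctsd promoter: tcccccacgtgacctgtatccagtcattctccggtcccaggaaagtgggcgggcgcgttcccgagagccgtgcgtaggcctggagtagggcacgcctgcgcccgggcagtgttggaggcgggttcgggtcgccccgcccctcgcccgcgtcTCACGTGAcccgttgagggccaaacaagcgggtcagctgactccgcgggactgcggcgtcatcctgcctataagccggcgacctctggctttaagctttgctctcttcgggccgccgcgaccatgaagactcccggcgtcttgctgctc

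TCACGTGA, which reads the same on both strands and contains the shorter motif CACGTG, was found in 7 of the 27 tested lysosome and autophagy genes that have a window, in 0 of 15 tested cholesterol genes with a window, and in 2.14% of 10125 tested genes with a window. Matches describe the sequence, and binding was not measured.

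Markers of microglia, vessels, astrocytes and oligodendrocytes were mostly positive as well. So were those of GABA and glycine neurons, with 5 of 5 tested positive and a median log2 fold change of 0.70. That median was 0.35 without S381 and 0.34 without S373. None of these 5 had an unadjusted p under 0.05, and their summed levels overlapped between ages. Some other types were mixed or mostly negative. Ependymal and choroid markers had a median of -1.17 (1 of 4 tested positive), glutamate neuron markers of -0.73 (0 of 3), the 1 tested cholinergic marker a value of -2.06, and oligodendrocyte precursor markers a median of 0.02 (5 of 9 positive). Microglia markers had a median log2 fold change of 0.86 over 15 tested members, with 14 positive, 3 at an unadjusted p under 0.05 as higher and a summed level of 61.4 to 123 CPM at 4 months against 136 to 225 CPM at 8 months. C1qa, a complement subunit made by microglia, stood at 0, 0, 2.13 and 1.25 CPM at 4 months and at 10.4, 15.9, 9.85 and 9.66 CPM at 8 months (3.88, SE 0.97, adjusted p = 0.639), and Ctss, a cathepsin of myeloid cells, at 0 to 5.67 CPM and 10.2 to 32.9 CPM (3.22, SE 0.85). DESeq2 called both. The third was P2ry12, at 0 to 3.72 CPM and 3.45 to 14.4 CPM. The microglia median was 1.65 without S373 and 1.38 without S385. Endothelial and mural markers had a median of 0.94 over 13 tested members, with 3 at an unadjusted p under 0.05 as higher, Vtn (called by DESeq2), Cldn5 and Itm2a, and a summed level of 46.5 to 94.6 CPM against 123 to 158 CPM. Cldn5, the tight junction protein of brain endothelium, stood at 0 to 11.3 CPM and 8.67 to 26.3 CPM. DESeq2 also called Kcnj8 of this list, which did not pass edgeR's filter. The list's median was 0.45 without S381, 0.49 without S374, 1.55 without S373 and 1.21 without S369, where 6 members had such a p.

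Astrocyte markers had a median of 0.65 over 15 members, with 14 positive and 3 at an unadjusted p under 0.05 as higher, Gja1, Clu and Fgfr3, of which DESeq2 called Gja1. There was 1 such member without S381 or without S374, and 6 without S367. Oligodendrocyte markers had a median of 0.57, with 12 of 15 positive and 4 at that p as higher, among them the transferrin gene Trf at 42.4 to 99.2 CPM and 108 to 145 CPM (0.72, SE 0.26). The oligodendrocyte median was 0.29 without S369, and 1 member had that p without S385 or without S373, 2 without S381 and 7 without S367. The summed levels of the microglia and of the endothelial and mural markers did not overlap between ages, and those of both macroglial lists did. The lysosomal proteases and progranulin are made by microglia as well as by neurons, and the part of these cells in the lysosome result was not tested. Genes of interferon response, antigen presentation and complement had 3 of 27 tested members at an unadjusted p under 0.05 as higher, C1qa, C4b and Ifitm3, with a median of 0.38. Without S381, S382 or S383 there was 1, and without S367 there were 5. The summed level of this list was 407 to 523 CPM at 4 months and 554 to 606 CPM at 8 months, without overlap.

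**Figure D4:**
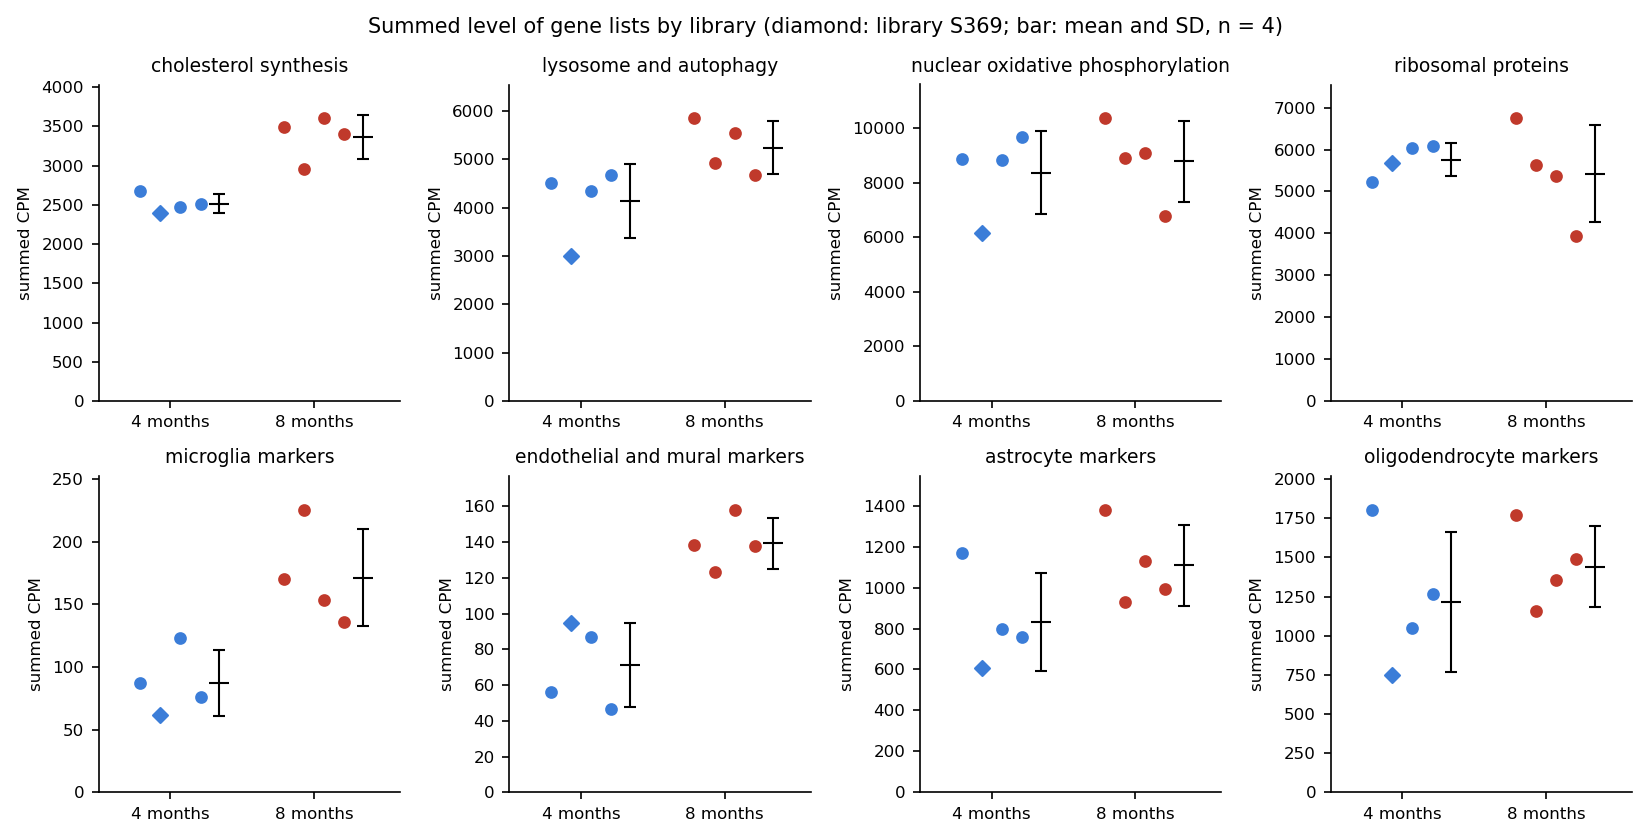
Summed TMM-scaled CPM of 8 gene lists in each library at 4 months (blue, n = 4) and 8 months (red, n = 4), with mean and SD beside the points and S369 as a diamond. Cholesterol synthesis, microglia and endothelial and mural sums do not overlap between ages, and oxidative phosphorylation and ribosomal protein sums overlap widely.

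Energy metabolism and protein turnover were mostly bounded within a doubling or halving. Of 63 tested nuclear genes of oxidative phosphorylation, 0 had an unadjusted p under 0.05 in either direction, 62 had an interval within -1 to 1, and the median log2 fold change was -0.05 (-0.15 without S381, 0.04 without S367). Proteasome subunits had a median of 0.07, with 30 of 31 intervals within -1 to 1. Ribosomal protein genes had a negative value in 42 of 48 tested genes with a median of -0.16, and 3, among them Rps2 and Rps25, had an unadjusted p under 0.05 as lower. That lean was absent without S385, the male with the lowest sum at 3929 CPM: 22 of 48 values were then positive and the median was -0.01. In females alone 22 were positive as well, with a median of -0.008. As S385 was the only male at 8 months, library and sex cannot be told apart here. Rps2 stood at 110, 134, 158 and 156 CPM at 4 months and at 78.0, 86.0, 95.1 and 76.8 CPM at 8 months, without overlap.

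Stress and damage programmes gave 0 members at an unadjusted p under 0.05 in the lists for oxidative stress, heat shock, glucocorticoid response, immediate early genes, clock genes and p53 response with senescence. In the last of these 17 of 22 values were negative with a median of -0.07, but without S367 12 of 23 were positive with a median of 0.07. Leaving out 1 library gave up to 3 members at that p in these lists, the 3 in oxidative stress without S367. The cell cycle inhibitor gene Cdkn1a stood at 0 to 14.3 CPM at 4 months and 3.79 to 11.9 CPM at 8 months. Cdkn2a, a marker of senescence, was at 0 CPM in 7 libraries and at 0.361 CPM in S382, below the floor. Cdkn2b was at 8.08 CPM in S367, at 0.308 CPM in S383 and at 0 CPM in the other 6. The unfolded protein response had 4 of 26 tested members at an unadjusted p under 0.05 as higher, with a median of 0.17, and the protein disulphide isomerase gene Pdia6 was its member without overlap, at 51.5 to 119 CPM and 137 to 165 CPM (0.57, SE 0.25; 0.39 without S369). The 4 became 0 without S381, without S385 or without S373, 1 without S383 and 7 without S367.

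Polycomb genes, whose loss is the subject of the series, were present at both ages. Eed stood at 14.3, 8.12, 10.8 and 8.20 CPM at 4 months and at 15.8, 11.4, 11.8 and 14.7 CPM at 8 months, with overlapping ages (log2 fold change 0.43, SE 0.49, adjusted p = 0.965). Of the catalytic subunits, Ezh1, the form of non-dividing cells, was at 58.6 to 137 CPM and 61.2 to 92.5 CPM (-0.002, SE 0.25), and Ezh2 at 0 to 6.24 CPM and 0.923 to 2.76 CPM. Suz12, the scaffold subunit, had a value of -0.31 (SE 0.31). None of 13 tested PRC2 subunits and demethylases had an unadjusted p under 0.05, and 1 was lower at that p without S381 or without S369.

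PRC1 subunits had a negative value in 18 of 22 tested genes, with a median of -0.28 and a summed level of 941 to 1125 CPM at 4 months against 776 to 884 CPM at 8 months. The 2 with an unadjusted p under 0.05 as lower were Yaf2, at 47.2 to 70.2 CPM and 31.6 to 41.2 CPM (-0.72, SE 0.26, adjusted p = 0.926), and Pcgf2, and 1, Pcgf5, had such a p as higher. The count of 2 was 0 without S374 and 4 without S367. Developmental targets of Polycomb repression were low at both ages: of 39 HOX genes 0 passed the filter on low counts, with a summed level of 6.42 to 30.7 CPM at 4 months and 6.38 to 12.5 CPM at 8 months. Of 94 other developmental factors 8 were tested and 0 called, and their sum was 93.7 to 173 CPM and 61.7 to 85.1 CPM, highest in S369.

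Clustered protocadherins are cell surface proteins that can give a neuron its own identity code. Of 57 genes 35 were tested, of which 26 had a positive value and 4 an unadjusted p under 0.05 as higher. The median was 0.78, and 1 interval lay within -1 to 1. The 4 were Pcdhga6, Pcdhga7, Pcdhb9 and Pcdhgb1, and DESeq2 called Pcdhga7 (adjusted p = 0.0435). Pcdhgb1 stood at 11.4, 6.71, 8.15 and 1.25 CPM at 4 months and at 23.3, 14.1, 17.7 and 13.6 CPM at 8 months (1.48, SE 0.67, adjusted p = 0.926). Pcdhac2, the member with the highest level, had a log2 fold change of 0.10 (SE 0.25). Isoforms of the alpha and of the gamma cluster share their 3′ exons, so the counts of single isoforms of these clusters are uncertain. Among 27 tested imprinted genes, 1 had an unadjusted p under 0.05 as higher and 1 as lower. The higher one was Magel2, at 78.0 to 121 CPM and 97.2 to 172 CPM with overlapping ages (0.52, SE 0.23), and Igf2 lay higher without overlap (2.02, SE 1.04) at a larger p. The lower one, Ube3a, did not overlap, at 200 to 494 CPM and 134 to 178 CPM (-0.76, SE 0.23, adjusted p = 0.871), and its value was -0.57 without S369, the highest library.

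Whether wt 5HT neurons differed over these months from wt mDA neurons was tested as a difference of age effects in the 25 wt libraries. It was called for 23 of 16178 genes (0.142%), of which 8 were more positive and 15 more negative in 5HT. In that fit edgeR called the age effect in mDA itself, in 9 and 8 libraries, for 0 of 16178 genes. The age effect in 5HT was called there for 20 genes. The smallest p of the difference belonged to Gsg1l, an AMPA receptor auxiliary subunit gene. It stood at 14.4, 18.3 and 29.8 CPM (lowest, median, highest) at 4 months and 2.16, 4.13 and 7.48 CPM at 8 months in 5HT, and at 41.4, 55.3 and 79.1 CPM and 44.2, 80.4 and 111 CPM in mDA. The 5HT ages did not overlap and the mDA ages did. The difference was -2.63 (SE 0.39, adjusted p = 0.00144). Cdk5r1 had a difference of -1.87 (SE 0.32), Man2b2 of 2.57 (SE 0.48) and Oprk1, the kappa opioid receptor gene, of -2.04 (SE 0.39).

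Chpf2 (1.23, SE 0.26) and Ggnbp2 (-1.52, SE 0.31) were called as well. Ntsr1, the neurotensin receptor gene of dopaminergic neurons, was called at 3.70 (SE 0.72), but in 5HT it was at 0 to 0.678 CPM at 4 months and 0.463 to 7.27 CPM at 8 months, near the floor. Phldb2, Tradd, Jam2, Grin2c and Xirp2 were also low in 5HT at 1 age or both. Other called genes were Sepp1, Zfp810, Tradd and Jam2 on the positive side, and Glud1, Sfpq, Ppp3ca, Apba1, Nos1ap, Grin2c, Gpr171, Pgm2l1, Phldb2, BC005561 and Xirp2 on the negative side. The number of calls moved with single libraries: there were 2 without S383, 4 without S385, 5 without S381, 11 without S382, 51 without S367 and 77 without S374, against 21 without S369 and 22 without S373, of which 14 and 12 were among the 23. The mDA libraries came from 3 sequencing sets and the 5HT libraries from set1 alone. With set as a term within mDA 56 genes were called, including all 23. In the set1 libraries alone, with 3 and 4 mDA libraries, 25 genes were called, of which 3 were among the 23: Gsg1l, Man2b2 and Sepp1.

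Against PRC2 mutant 5HT neurons, the age effect of wt differed for 2 of 15633 genes (0.0128%) in a fit of the 16 5HT libraries, and they were the transporter and the synthesis enzyme of serotonin. In mutants, Slc6a4 stood at 3447, 2532, 2460 and 2423 CPM at 4 months and at 517, 578, 595 and 509 CPM at 8 months. Mutant Tph2 stood at 3338, 1920, 1696 and 2204 CPM and at 329, 557, 394 and 330 CPM. Mutant libraries at 4 months overlapped the wt ones for both genes, and at 8 months all 4 lay below every wt library. The wt age effects in this fit were 0.21 and 0.12, and the differences of wt minus mutant were 2.51 (SE 0.23, adjusted p = 5.22e-06) for Slc6a4 and 2.62 (SE 0.33) for Tph2. Both stayed called without any 1 of the wt libraries.

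**Figure D5:**
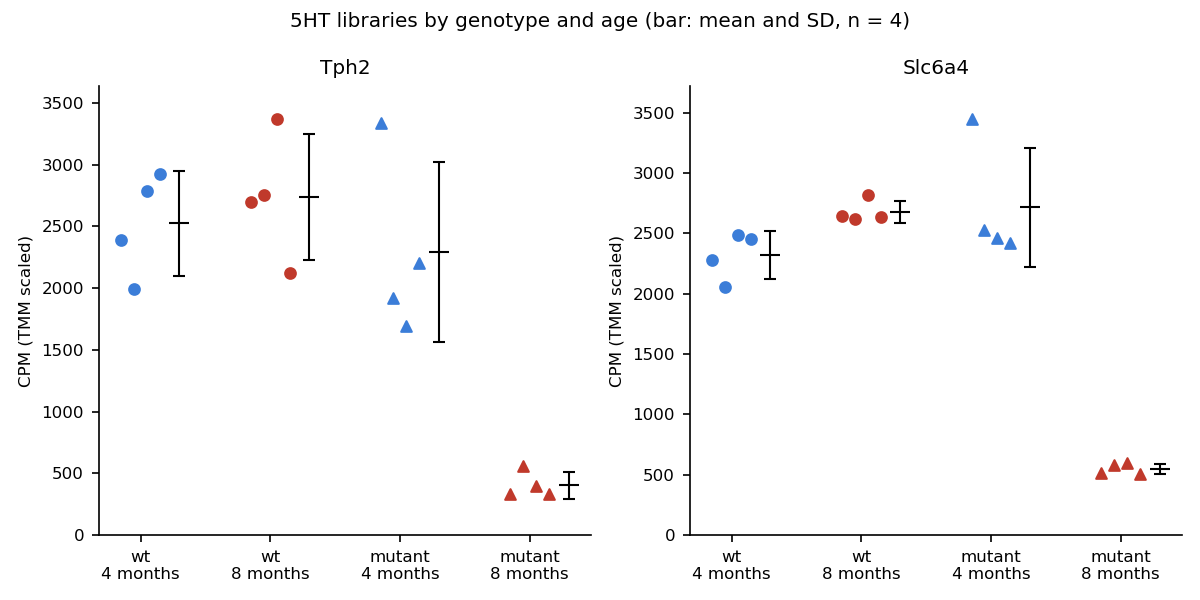
TMM-scaled CPM of Tph2 and Slc6a4 in each 5HT library by genotype and age (n = 4 per group, triangles for PRC2 mutants), with mean and SD beside the points. Wt libraries sit between 1991 and 3367 CPM for Tph2 at both ages, and mutants at 8 months sit between 329 and 557 CPM.

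The start regions of both genes are shown because they differ in CpG content, the feature that marks typical PRC2 targets. They are RefSeq windows of GRCm38.p6 over the start site, 5′ to 3′, with each CG in capitals: Tph2 on the minus strand at chr10:115184973-115185272 and Slc6a4 on the plus strand at chr11:76998347-76998646.

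Tph2 promoter: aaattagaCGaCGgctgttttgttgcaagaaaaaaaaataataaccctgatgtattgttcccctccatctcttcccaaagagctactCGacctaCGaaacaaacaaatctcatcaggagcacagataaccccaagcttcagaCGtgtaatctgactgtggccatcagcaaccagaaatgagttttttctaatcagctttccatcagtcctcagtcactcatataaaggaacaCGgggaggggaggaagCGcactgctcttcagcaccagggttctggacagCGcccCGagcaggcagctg

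Slc6a4 promoter: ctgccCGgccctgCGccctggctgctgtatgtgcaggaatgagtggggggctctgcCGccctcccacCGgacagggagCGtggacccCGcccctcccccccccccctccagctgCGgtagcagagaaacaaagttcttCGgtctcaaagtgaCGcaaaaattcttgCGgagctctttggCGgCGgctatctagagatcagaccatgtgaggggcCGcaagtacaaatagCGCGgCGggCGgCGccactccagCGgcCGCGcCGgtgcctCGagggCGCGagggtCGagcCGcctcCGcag

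The Tph2 window holds 9 CG pairs and 47.3% G or C, and that of Slc6a4 28 CG pairs and 67.7%. The median over 32851 windows is 7 CG pairs, and 54.2% of windows hold fewer than Tph2 and 85.8% fewer than Slc6a4. Neither histone marks nor DNA methylation were measured in these libraries.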

How the data were processed

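RNA was measured by Smart-seq2 in sorted neurons, and the authors deposited raw counts of reads per gene in 1 table, for 24564 genes in 51 libraries. The submitters' processing notes name STAR 2.7.0a and the builds mm10 and GRCm38. Which program counted the reads, and whether by strand, is not given in the sources used here. Of the table's columns, 0 were left out, and the mCherry reporter row stayed out of totals and tests. Groups, sex and sequencing set come from the labels. Replicates are separate animals by their numbers, and replicates differed by more than counting noise (chi-square per degree of freedom of 13.1 or more).

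The test was edgeR 4.0.16 (R 4.3.3): filterByExpr with a minimum count of 10, TMM scaling, a robust quasi-likelihood fit with sex as a term (5 residual degrees of freedom) with calls at a Benjamini-Hochberg adjusted p below 0.05. Differences of age effects were contrasts over the 25 wt and the 16 5HT libraries. SE, which is approximate, was taken as the size of the log2 fold change over the root of F, and components and correlations used log2 CPM with a prior count of 2. Alternatives used DESeq2 1.42.0 and limma 3.58.1 (voom). The fits were tested on simulated data.

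The members, gene lists and tests were chosen with earlier results of these data known. Named genes were drawn from the 10 smallest p on each side at 3 log2 CPM or more (none was called), the member with the smallest p and the highest level of each list, a fixed set of serotonergic, Polycomb and cell cycle genes, the 5 smallest p of each difference of age effects (other called genes are also named), and the 5 narrowest and 5 most variable genes at 5 log2 CPM or more, without gene models. Other list members are named for an unadjusted p under 0.05, chosen after their values were seen. Symbols matched RefSeq for 22459 of 24564 genes (91.4%). CPM does not correct for gene length. Some genes are not reported here.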

Additional observations from a re-analysis of the deposited data

Results flagged for a closer look

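Within groups of 4 libraries, the gap of the highest or lowest library to its neighbour, as a share of the group's range, passed Dixon's 95% critical value in 21 of 258 groups examined. That value is set for about 1 in 20 groups of independent normal values. The genes examined were partly chosen by their values in these data, and the groups share libraries. The count of 21 was therefore not tested against chance. Of the 21, 12 were library S369. It was lowest of the 4-month libraries for Slc18a2 (1627 CPM), Clu (117.5 CPM), Htr1a (49.42 CPM), Zgpat (3.177 CPM) and Pcp4l1 (0 CPM). It was highest there for Pclo (1561 CPM), Erc2 (680.2 CPM), Ggnbp2 (524.9 CPM), Gata3 (191.7 CPM), the sum of ion channel genes (6206 CPM), the sum of other developmental factors (173 CPM) and the share of its counts in its top 50 genes (35.79%). In the other groups, S373 was the highest 4-month library for Htr5b (29.77 CPM) and Pcdhga6 (0.1772 CPM, with 0 in the other 3). At 8 months S381 was highest for Psap (1001 CPM), Ctla2a (70.94 CPM) and Suz12 (60.54 CPM), and it had the lowest mean correlation with the other libraries (0.8389). S382 was highest for C1qa (15.89 CPM), and S385 for Pdia6 (164.5 CPM) and Slc17a8 (60.88 CPM).

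Age effects that differed between groups by the test of the difference itself included, for 5HT minus mDA in wt, Ntsr1 (3.70), Man2b2 (2.57), Chpf2 (1.23), Ggnbp2 (-1.52), Cdk5r1 (-1.87), Oprk1 (-2.04) and Gsg1l (-2.63). For wt minus PRC2 mutant in 5HT they were Tph2 (2.62) and Slc6a4 (2.51), where the wt values lay near 0 and the mutant ones were -2.51 and -2.30.

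The mCherry reporter row was used in no comparison. It held 7 counts in S369 and 68 to 163 counts in the other 7 libraries, above the limit of 3 that a count of 0 allows.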

How the results depend on the processing

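At 8 against 4 months the count of 0 held with RLE scaling, a minimum count of 50, no sex term, females alone, all 16 5HT libraries, a fit that was not robust and each fit without 1 library (0 to 0). It became 38 (27 higher, 7 of them below the filter on low counts) with DESeq2, 1 with limma-voom, 25 (15 higher) without a filter on low counts and 20 (10 higher) with all 25 wt libraries; 8 of these 20 and 13 of the 25 were among DESeq2's 38. The cause was not tested. The 5HT minus mDA count of 23 became 25 with RLE, 15 without sex, 56 with set as a term and 2 to 77 without 1 library, and the set1 alternative was added after seeing the data. The wt minus mutant count stayed at 2 to 3. Of 81 genes followed, those that changed sign between fits are listed here. Some of them, such as Cdkn1a, Lmx1b and Htr1b, moved over a wide range when 1 library was left out. Tph2 was 0.0188 without filter, 0.10 without sex, 0.0428 in females, 0.12 with 16 and 0.17 with 25 libraries. Gata3 was 0.00293 (voom), 0.0117 (no filter), 0.17 (females), 0.0712 and 0.17 (16 and 25 libraries). Htr1b was -0.000295 (RLE), -0.00104 (DESeq2), -0.0331 (no sex) and -0.14 (16 libraries). Ezh1 was 0.0209 (no filter) and 0.28 (females), and Cdkn1a -0.0140 (females). Without 1 library the ranges were -0.29 to 1.54 for Cdkn1a, -0.13 to 0.28 for Ezh1, -0.0928 to 0.17 for Gata3, -0.27 to 0.87 for Htr1b, -0.0176 to 1.02 for Lmx1b, -0.0391 to 0.24 for Maoa, -0.50 to 0.00645 for Suz12 and -0.0757 to 0.0394 for Tph2. No paired analysis was possible because no label pairs the animals. Intervals were wide for most genes below about 5 log2 CPM, and the parts of depth and of spread between animals in this were not separated. The number of 4 animals per age, unbalanced in sex, limits all genes.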
